A study of Saccharomyces cerevisiae with 6 samples.

Results

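The 10 genes described here encode enzymes of the mitochondrial tricarboxylic acid (TCA) cycle of *Saccharomyces cerevisiae*. They were chosen by name, for the step that each enzyme carries out, and all 10 were found among the 7032 genes of the count table and among the 5936 genes that passed the filter on low counts. The first part of the cycle is made up of 4 genes, *CIT1*, *ACO1*, *IDH1* and *IDH2*, and the rest is made up of 6 genes, *KGD1*, *KGD2*, *LSC1*, *LSC2*, *FUM1* and *MDH1*. Newly made RNA was measured by transient-transcriptome sequencing (TT-seq) in 3 *dbp2Δ* and 3 wild-type libraries, each from a separate biological replicate. The question here was how the new RNA of these genes differed in the strain without Dbp2, a DEAD-box RNA helicase. Libraries were scaled on the gene counts themselves, so falls and rises are relative to the other genes. An overall change in RNA synthesis or labelling was not measured.

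The *dbp2Δ* strain is *MATα* and carries *dbp2::KanR*, *ura3Δ0*, *leu2Δ0* and *his3Δ0* with *TRP1*, *MET* and *LYS*. The wild-type strain is listed as BY4741, *MATa* with *his3Δ1*, *leu2Δ0*, *met15Δ0* and *ura3Δ0*. Both held the empty plasmid pRS426, grew on glucose without uracil and were given 4-thiouracil for a short pulse, after which the labelled RNA was purified. *DBP2* had 0, 0 and 2 raw counts in *dbp2Δ* and 10976, 11136 and 11213 in wild-type, as labelled. The backgrounds also differed elsewhere, since *LYS2* had 4477 to 5894 raw counts in *dbp2Δ* and 0 or 1 in wild-type, and *MET17* (the *MET15* gene) had 1505 to 2030 in *dbp2Δ* and 0 in every wild-type library. The near absence of *LYS2* counts in wild-type goes against the listed genotype, which names no *lys2* allele. The effect of *DBP2* and that of these other differences cannot be told apart. Gene counts summed to between 6968216 and 8659542 per library in *dbp2Δ* and between 11177517 and 13134963 in wild-type. The wild-type libraries were more scattered, with a biological coefficient of variation of 26.6%, against 9.66% in *dbp2Δ*, and wild-type replicate 3 was the least like the others (r with the other wild-type libraries of 0.956 and 0.967 on the log2 scale). With bulk cultures, fewer cells that make an RNA and less of it made per cell cannot be told apart.

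The TCA cycle takes the acetyl group of acetyl-CoA, joins it to oxaloacetate to form citrate, and oxidises it to CO2 while the electrons pass to the respiratory chain. Its first reactions, up to 2-oxoglutarate, also supply the carbon skeleton of glutamate, so that yeast needs them even where it does not respire. On glucose, yeast ferments and keeps many genes of the cycle repressed. The HAP complex, which binds CCAAT elements, activates genes of respiration, and the retrograde factors Rtg1 and Rtg3, which bind R boxes (GTCAC), are known to keep *CIT1*, *ACO1*, *IDH1* and *IDH2* expressed in cells with poor respiratory function.

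In the R64 genome build, *CIT1* (YNR001C) lies on the minus strand at chrXIV:629622-631061, *ACO1* (YLR304C) on the minus strand at chrXII:735212-737548, *IDH1* (YNL037C) on the minus strand at chrXIV:557920-559002 and *IDH2* (YOR136W) on the plus strand at chrXV:580250-581359. Of the rest, *KGD1* (YIL125W) lies on the plus strand at chrIX:122689-125733, *KGD2* (YDR148C) on the minus strand at chrIV:753675-755066, *LSC1* (YOR142W) on the plus strand at chrXV:593057-594046, *LSC2* (YGR244C) on the minus strand at chrVII:978036-979319, *FUM1* (YPL262W) on the plus strand at chrXVI:47336-48802 and *MDH1* (YKL085W) on the plus strand at chrXI:279123-280127. These are the coding sequences, each a single exon. None of the 10 is overlapped by another annotated gene, and none has an antisense transcript among the 1669 genes for which the deposited data list one. For 8 of the 10 the downstream gene is convergent, at gaps of 136 bp (*IDH1*) to 1005 bp (*CIT1*). It is not stated whether reads were counted by strand, so any reads running in from these genes cannot be told apart from those of the members. No 50-base window of any member is found elsewhere in the genome, although several have isoenzymes. At *ACO1*, 1335 bp and 1 tRNA gene separate the end of its coding sequence from the end of *MET17* (chrXII:732542-733876, plus strand), the gene that wild-type lacks. *ACO1* therefore sits beside a locus that differs between the strains, and the part of that difference in the *ACO1* counts cannot be told apart from that of *DBP2*.

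Short stretches upstream of the first-part genes are shown because *ACO1*, *IDH1* and *IDH2* had the largest falls of the 10 genes and *CIT1*, the gene before them in the cycle, did not pass the test, and because CCAAT and GTCAC are the core letters of the elements named above. Both motifs were searched on both strands in the 300 bases from 250 before to 50 after the start codon, as given in the R64 genome from RefSeq. CCAAT was found at 5 of the 10 members (*ACO1*, *IDH1*, *IDH2*, *FUM1* and *MDH1*), against 43.3% of 6001 promoters, and GTCAC at 4 of the 10 (*KGD1*, *LSC1*, *LSC2* and *FUM1*), against 26.4%. The CCAAT of *FUM1* and the GTCAC of *LSC1* lie after the start codon, within the coding sequence. Such matches are counted in the shares over all promoters too. In these windows *ACO1*, *IDH1*, *IDH2* and *MDH1* thus held CCAAT and no GTCAC, and *CIT1* and *KGD2* held neither. *MDH1* did not pass the test, so CCAAT without GTCAC was not particular to the genes with the largest falls. In a wider window of 500 bases before the start codon, which was chosen after seeing the data, CCAAT was found at 8 members, against 62.4% of 6000 promoters, and GTCAC at 6, against 42.5%. There *CIT1*, *ACO1* and *IDH1* held both motifs and *IDH2* held CCAAT alone. *ACO1* held a further CCAAT match there, 290 bases before the start, which is not among the stretches below. No CCAAT match shared a base with a GTCAC match in these genes. In the stretches below, written from 5′ to 3′ on the strand that carries the motif, capitals mark the match, and the number of bases is counted from the start codon back to the far end of the match.
*ACO1*, CCAAT 207 bases before the start, chrXII:737741-737765, minus strand: catcaaacctCCAATcgctgccggt
*IDH1*, CCAAT 144 bases before the start, chrXIV:559132-559156, plus strand: caagaataagCCAATgaagcggaag
*IDH2*, CCAAT 89 bases before the start, chrXV:580151-580175, minus strand: aaaagtgtatCCAATaatgtcatgc
*CIT1*, CCAAT 293 bases before the start, chrXIV:631340-631364, plus strand: ttgcgatcctCCAATaacacaaaag
*CIT1*, GTCAC 368 bases before the start, chrXIV:631415-631439, minus strand: gctaaaaggcGTCACgtttttttcc
*ACO1*, GTCAC 450 bases before the start, chrXII:737984-738008, minus strand: aatgacgccgGTCACacgcgggtgc
*IDH1*, GTCAC 355 bases before the start, chrXIV:559343-559367, minus strand: ggcgtcatagGTCACtcatcaacca
*IDH1*, GTCAC 477 bases before the start, chrXIV:559465-559489, plus strand: agtaacgtaaGTCACgtgctttcta
These matches are a description of letters, and binding was not measured.

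Of the 10 genes, 7 fell in *dbp2Δ* and none rose. The largest falls were those of *ACO1*, *IDH1* and *IDH2*, whose mean counts in *dbp2Δ* were 33.3%, 39.1% and 34.9% of those in wild-type. *LSC2*, *FUM1*, *LSC1* and *KGD1* fell less, to between 55.2% and 76.9% of wild-type, while *CIT1*, *KGD2* and *MDH1* did not pass the test. The test was the quasi-likelihood test of edgeR, with p adjusted by Benjamini and Hochberg's method over the 5936 genes, and a gene was called at an adjusted p under 0.05. The strains differed broadly: 41.9% of all genes were called (2488), 21.9% as lower in *dbp2Δ* and 20.0% as higher. Against the 21.9% of all genes that were lower, 7 of 10 members (70.0%) were, which is a description of a list chosen by hand and not a test of it. With both a call and a log2 fold change of -1 or less there were 3 members, against 6.77% of all genes, and 8 members had no overlap between strains with *dbp2Δ* lower, against 28.1%. No member had all *dbp2Δ* libraries above all wild-type libraries, against 27.7% of all genes. The log2 fold changes ran from -1.58 to -0.20 with a median of -0.55, against a median of -0.01 over all genes. All 10 were negative, so that 0 were higher also at an unadjusted p under 0.05 and with DESeq2. The member count was 4 without *dbp2Δ* replicate 1 and 4 without *dbp2Δ* replicate 2, where 800 and 763 of all genes were lower, against 1301 with all libraries. It was 7 without wild-type replicate 3, where 1551 of all genes were lower. Leaving out that replicate lost and gained no member's call, and gave -1.50, -1.31 and -1.37 for *ACO1*, *IDH1* and *IDH2*, -0.39 for *KGD1* and -0.42 for *LSC1*.

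**Figure D1:**
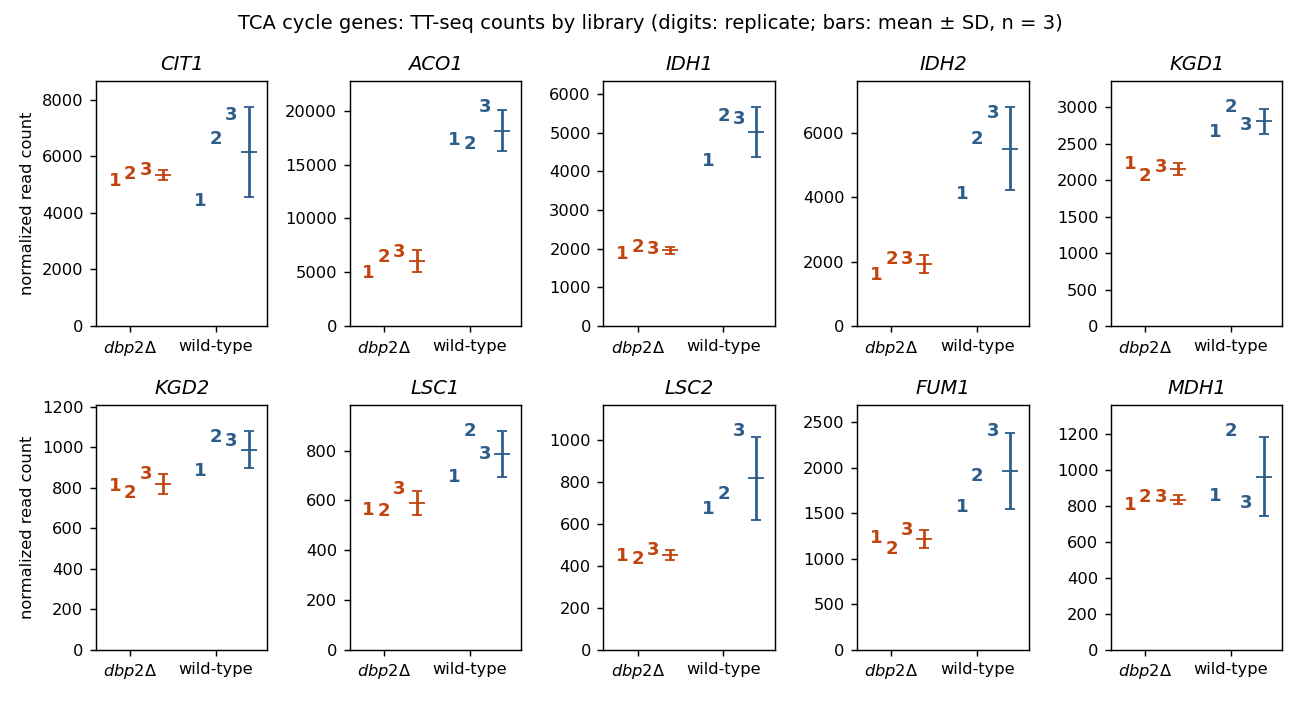
Normalized read counts (vertical axes, each from 0) of the 10 genes in the *dbp2Δ* libraries (left, orange) and the wild-type libraries (right, blue), with digits for the replicates and bars for the mean ± SD (n = 3). The strains are far apart for *ACO1*, *IDH1* and *IDH2*, where *dbp2Δ* means are 33.3%, 39.1% and 34.9% of wild-type, and overlap for *CIT1* and *MDH1*.

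*ACO1* encodes aconitase, which turns citrate into isocitrate by way of aconitate. It had 4894, 6393 and 6880 normalized counts in the *dbp2Δ* libraries, against 17245, 16921 and 20333 in the wild-type libraries, where a normalized count is a TMM-normalized count at the mean effective library size. Every *dbp2Δ* library was far below every wild-type library, with means of 6056 ± 1030 and 18166 ± 1880 (SD, n = 3 each). Its log2 fold change was -1.58 (SE 0.18, 95% interval -2.01 to -1.16, adjusted p = 0.0012 from edgeR), which placed it at the lowest 2.91% of all genes tested. *ACO1* was called in all 11 alternatives, with log2 fold changes of -1.69 to -1.45.

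*IDH1* and *IDH2* encode the subunits of the NAD-dependent isocitrate dehydrogenase, an octamer of both that forms 2-oxoglutarate. *IDH1* had 1856, 2033 and 1989 normalized counts in *dbp2Δ*, against 4268, 5425 and 5346 in wild-type. *IDH2* had 1594, 2078 and 2093 in *dbp2Δ*, against 4110, 5798 and 6621 in wild-type. For both subunits the highest *dbp2Δ* library lay far below the lowest wild-type library. The log2 fold change was -1.35 for *IDH1* (SE 0.14, 95% interval -1.68 to -1.03, adjusted p = 0.00085 from edgeR) and -1.52 for *IDH2* (SE 0.21, 95% interval -2.0 to -1.04, adjusted p = 0.0021). Each was called in all 11 alternatives, *IDH1* at -1.46 to -1.28 and *IDH2* at -1.69 to -1.37. The genes of the pair fell together, since the ratio of *IDH1* to *IDH2* counts was 1.16, 0.978 and 0.951 in *dbp2Δ* and 1.04, 0.936 and 0.807 in wild-type, with overlap between strains.

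*CIT1* encodes the mitochondrial citrate synthase, which starts the cycle, and it did not follow the other genes of the first part. It had 5137, 5359 and 5509 normalized counts in *dbp2Δ*, against 4404, 6598 and 7465 in wild-type. The *dbp2Δ* libraries were close together and lay within the wild-type range, of which replicate 1 was the low end. The log2 fold change was -0.21 (SE 0.20, adjusted p = 0.43), with a 95% interval of -0.67 to 0.26, so that a fall as large as that of *ACO1* lies outside the interval. *CIT1* was called in none of the 11 alternatives, where its log2 fold change ran from -0.40 (without wild-type replicate 1) to -0.05 (without wild-type replicate 3). Counts of *ACO1* per count of *CIT1* were 0.953, 1.19 and 1.25 in *dbp2Δ*, against 3.92, 2.56 and 2.72 in wild-type. Those of *IDH1* per *CIT1* were 0.361, 0.379 and 0.361 in *dbp2Δ*, against 0.969, 0.822 and 0.716 in wild-type, and those of *IDH2* per *CIT1* were 0.310, 0.388 and 0.38, against 0.933, 0.879 and 0.887. These within-library ratios do not depend on the scaling between libraries, and for each of the 3 genes the strains did not overlap. Since 3 libraries against 3 cannot give an exact two-sided permutation p below 0.10, the ratios were not tested one by one.

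The 2-oxoglutarate dehydrogenase complex, which forms succinyl-CoA, is represented by *KGD1* (its E1 component) and *KGD2* (its E2 component). *KGD1* had 2221, 2063 and 2186 normalized counts in *dbp2Δ*, against 2655, 3000 and 2761 in wild-type. Its libraries did not overlap, and it fell by 0.38 on the log2 scale (SE 0.11, adjusted p = 0.030 from edgeR). *KGD2* had 807, 773 and 870 in *dbp2Δ*, against 884, 1053 and 1030 in wild-type, also with no overlap, and did not pass the test at -0.28 (SE 0.11, adjusted p = 0.076). The ratio of *KGD1* to *KGD2* was 2.75, 2.67 and 2.51 in *dbp2Δ* and 3.0, 2.85 and 2.68 in wild-type, which overlap. The call of *KGD1* was lost without *dbp2Δ* replicate 1, 2 or 3 (adjusted p = 0.083, 0.13 and 0.093), without wild-type replicate 2 (0.088) and with no TMM factor (0.072), while *KGD2* was called without wild-type replicate 1 (-0.35, adjusted p = 0.028).

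*LSC1* and *LSC2* encode the α and β subunits of succinyl-CoA ligase, the step of substrate-level phosphorylation. *LSC1* had 563, 559 and 646 normalized counts in *dbp2Δ*, against 693, 879 and 785 in wild-type. *LSC2* had 446, 431 and 476 in *dbp2Δ*, against 668, 742 and 1042 in wild-type. Neither gene overlapped between strains, and for *LSC2* wild-type replicate 3 stood above the other libraries. *LSC1* fell by 0.41 on the log2 scale (SE 0.13, adjusted p = 0.033) and *LSC2* by 0.86 (SE 0.18, adjusted p = 0.0081). *LSC2* had the largest fall outside the first part, was called in all 11 alternatives (-0.98 to -0.65) and was at -0.65 without wild-type replicate 3 (adjusted p = 0.0024). The call of *LSC1* was lost without *dbp2Δ* replicate 1, 2 or 3 (adjusted p = 0.12, 0.12 and 0.054), without wild-type replicate 2 (0.10) and with no TMM factor (0.051). Unlike the *IDH* and *KGD* pairs, the ratio of *LSC1* to *LSC2* did not overlap, at 1.26, 1.30 and 1.36 in *dbp2Δ*, against 1.04, 1.18 and 0.754 in wild-type.

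*FUM1* encodes fumarase, which acts in both mitochondria and cytosol, and *MDH1* the mitochondrial malate dehydrogenase, which closes the cycle. *FUM1* had 1232, 1112 and 1312 normalized counts in *dbp2Δ*, against 1574, 1909 and 2406 in wild-type. The strains did not overlap, and *FUM1* fell by 0.69 on the log2 scale (SE 0.17, adjusted p = 0.015 from edgeR). Its call was lost without *dbp2Δ* replicate 1 or 2 (adjusted p = 0.057 and 0.066) and held without wild-type replicate 3 (-0.52, adjusted p = 0.0093). *MDH1* had 806, 846 and 849 in *dbp2Δ*, against 852, 1215 and 815 in wild-type. Only wild-type replicate 2 stood clearly above the *dbp2Δ* libraries, and the log2 fold change of -0.20 (SE 0.16, adjusted p = 0.33) had a 95% interval of -0.58 to 0.17.

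**Figure D2:**
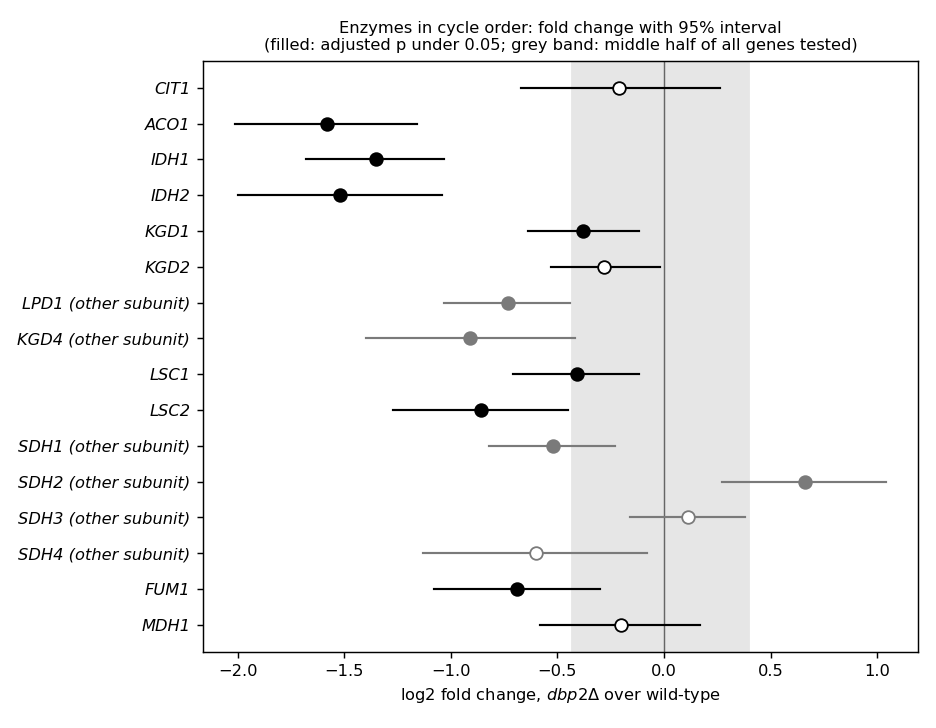
Log2 fold changes of *dbp2Δ* over wild-type (horizontal axis) with 95% intervals, in the order of the cycle, for the 10 members (black) and the other subunits of its enzymes (grey), with filled points for an adjusted p under 0.05. The grey band runs from -0.43 to 0.40 and marks the quartiles of all genes tested; *ACO1*, *IDH1* and *IDH2* lie at -1.58 to -1.35, and *SDH2* is the one filled point above 0.

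As a group, the first part of the cycle had a median log2 fold change of -1.44 and the rest a median of -0.40, against -0.01 over all genes tested. The mean log2 count of the first part less that of the rest was 1.75, 2.04 and 1.93 in the *dbp2Δ* libraries, against 2.50, 2.57 and 2.73 in the wild-type libraries. All *dbp2Δ* libraries were below all wild-type libraries, with means of 1.91 ± 0.15 and 2.60 ± 0.12 (SD, n = 3 each) and a difference of -0.70 (-0.63 without wild-type replicate 3). This score was given no test, since its members were chosen by hand with earlier results of these data known. Without *CIT1*, the same score was 1.48, 1.83 and 1.72 in *dbp2Δ*, against 2.66, 2.64 and 2.80 in wild-type, a difference of -1.02. For *CIT1* alone less the rest it was 2.55, 2.67 and 2.56 in *dbp2Δ*, against 2.05, 2.35 and 2.54 in wild-type. The fall of the first part relative to the rest was thus carried by *ACO1*, *IDH1* and *IDH2*. *CIT1* lay slightly higher relative to the rest in *dbp2Δ*, but wild-type replicate 3 (2.54) nearly reached the lowest *dbp2Δ* library (2.55). In summed normalized counts, the first part had 13481 to 16470 in *dbp2Δ* and 30027 to 39765 in wild-type, and the rest had 5784 to 6339 in *dbp2Δ* and 7326 to 8840 in wild-type. The sum of the first part was 2.22, 2.74 and 2.60 times that of the rest in *dbp2Δ*, against 4.10, 3.95 and 4.5 times in wild-type. These sums and count ratios are not divided by gene length, so they compare the strains and not the genes.

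The order of the levels within the cycle also differed. Per kb of coding sequence, *CIT1* had the highest level in *dbp2Δ*, with 3705 ± 130 normalized counts per kb (SD, n = 3), followed by *ACO1* (2591 ± 443), *IDH1* (1809 ± 85.0) and *IDH2* (1731 ± 256). The *CIT1* libraries lay above the *ACO1* libraries with no overlap, as did the *ACO1* libraries above those of both *IDH* genes, which overlapped each other. In wild-type, *ACO1* had the highest level at 7773 ± 806 per kb, above every library of the other members. *IDH2* (4964 ± 1150), *IDH1* (4629 ± 597) and *CIT1* (4275 ± 1100) followed and could not be ordered beyond their spread. In both strains every first-part gene exceeded every gene of the rest in every library. Among the rest, *FUM1* had 831 ± 68.6 per kb in *dbp2Δ* and 1338 ± 285 in wild-type, and *MDH1* had 829 ± 24.0 in *dbp2Δ* and 956 ± 220 in wild-type. *KGD1* (708 ± 27.3), *LSC1* (595 ± 49.8) and *KGD2* (587 ± 35.5) came next in *dbp2Δ*, as they did in wild-type at 921 ± 58.1, 794 ± 94.0 and 711 ± 65.9. *LSC2* was the lowest, at 351 ± 17.8 in *dbp2Δ* and 636 ± 154 in wild-type. In *dbp2Δ*, *LSC2* lay below all other members with no overlap, while in wild-type it overlapped with *KGD2*, *LSC1* and *MDH1*. Neighbours in this order from *FUM1* down overlapped in wild-type, and in *dbp2Δ* only *FUM1* with *MDH1* and *LSC1* with *KGD2* did.

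**Figure D3:**
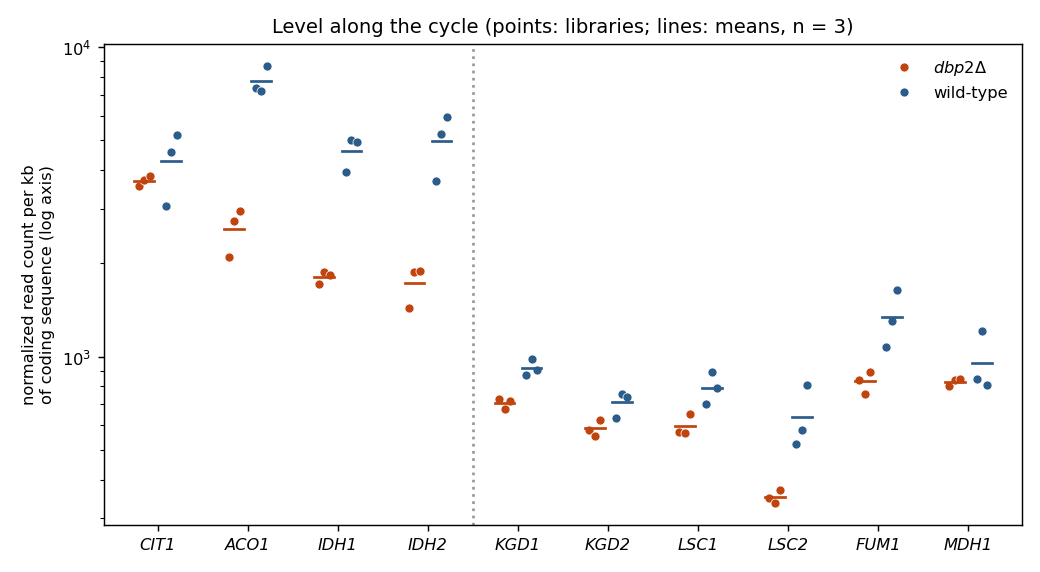
Normalized read counts per kb of coding sequence (log axis) of the 10 genes in cycle order, with a point for each library and a line for each mean (n = 3), *dbp2Δ* in orange left of wild-type in blue. The dotted line parts the first part of the cycle from the rest; *CIT1* is highest in *dbp2Δ* (mean 3705) and *ACO1* in wild-type (mean 7773).

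The other subunits of the cycle's enzymes differed in direction from one another: 3 of 6 fell, 1 rose and 2 did not pass the test. These counts, and those of the lists that follow, stand against 21.9% of all genes lower and 20.0% higher, and with lists this short nothing particular to a list is read from them. *LPD1*, the dihydrolipoamide dehydrogenase shared with pyruvate dehydrogenase, fell by 0.73 on the log2 scale (SE 0.13, adjusted p = 0.0045 from edgeR), and *KGD4*, a small subunit of the 2-oxoglutarate dehydrogenase complex, fell by 0.91 (SE 0.21, adjusted p = 0.013). Succinate dehydrogenase, which also serves as complex II of the respiratory chain, was split. *SDH1*, its flavoprotein subunit, had 536, 461 and 582 normalized counts in *dbp2Δ*, against 699, 821 and 745 in wild-type (log2 fold change -0.52, adjusted p = 0.015). *SDH2*, its iron-sulfur subunit, had 757, 671 and 683 in *dbp2Δ*, against 358, 431 and 547 in wild-type (0.66, adjusted p = 0.017). The ratio of *SDH1* to *SDH2* was 0.709, 0.687 and 0.852 in *dbp2Δ*, against 1.95, 1.90 and 1.36 in wild-type, with no overlap. The membrane subunits *SDH3* (0.11, adjusted p = 0.46) and *SDH4* (-0.60, adjusted p = 0.065) did not pass the test. The call of *SDH1* was lost without *dbp2Δ* replicate 1 (adjusted p = 0.054) or 2 (0.065) and that of *SDH2* without *dbp2Δ* replicate 1 (0.066) or 3 (0.053) or wild-type replicate 2 (0.051), while *SDH4* was called without *dbp2Δ* replicate 1 (0.045) or wild-type replicate 1 (0.023) and by DESeq2 (0.043).

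Among 11 genes for isoenzymes of the cycle and paralogs of its subunits, 3 fell, 3 rose and 5 did not pass the test (median log2 fold change 0.36). The largest difference was that of *MDH2*, the cytosolic malate dehydrogenase of gluconeogenesis. It had 6916, 4932 and 5144 normalized counts in *dbp2Δ*, against 362, 955 and 450 in wild-type (log2 fold change 3.27, SE 0.38, adjusted p = 0.0013). Counts of *MDH1* per count of *MDH2* were thus 0.117, 0.172 and 0.165 in *dbp2Δ*, against 2.36, 1.27 and 1.81 in wild-type, with no overlap. Per kb of coding sequence, *MDH1* was below *MDH2* in *dbp2Δ* (829 ± 24.0 against 4995 ± 960 normalized counts per kb, SD, n = 3) and above it in wild-type (956 ± 220 against 519 ± 282), in every library. *IDP1*, the mitochondrial NADP-dependent isocitrate dehydrogenase, had 1583, 1515 and 1584 in *dbp2Δ*, against 3185, 4005 and 11264 in wild-type. Its log2 fold change of -1.98 (adjusted p = 0.012) was -1.21 without wild-type replicate 3 (adjusted p = 0.00017) and missed the threshold without *dbp2Δ* replicate 1 (adjusted p = 0.051). *MDH3*, the peroxisomal malate dehydrogenase (-0.72), also fell, and *IDP2*, the cytosolic NADP-dependent enzyme (0.83), rose. The call of *IDP2* was lost without *dbp2Δ* replicate 3 (adjusted p = 0.052). *SHH3*, a paralog of *SDH3*, rose (2.84, adjusted p = 0.0048) on 10, 10 and 15 raw counts in *dbp2Δ* and 1, 2 and 4 in wild-type. *CIT2*, the peroxisomal citrate synthase and a classic target of the retrograde pathway, had 33526, 38423 and 34817 normalized counts in *dbp2Δ*, against 22776, 25236 and 33397 in wild-type. It did not pass the test over all libraries (0.39, adjusted p = 0.15) and did without wild-type replicate 3 (0.57, adjusted p = 0.011). Antisense transcripts are listed for *MDH2*, *MDH3*, *IDP2*, *SHH3* and *CIT2*, and since it is not stated whether reads were counted by strand, reads of these genes and reads antisense to them cannot be told apart.

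Of 10 genes for the entry of pyruvate, 4 fell, 2 rose and 4 did not pass the test (median -0.46). Among the subunits of pyruvate dehydrogenase, *LAT1* (-0.92) and *PDX1* (-0.68) fell. The subunits *PDA1* (-0.15, adjusted p = 0.47 from edgeR) and *PDB1* (-0.17, adjusted p = 0.31) did not pass the test. *PYC1*, pyruvate carboxylase, which makes oxaloacetate in the cytosol, had 40735, 37172 and 40033 normalized counts in *dbp2Δ*, against 20520, 19770 and 15296 in wild-type (1.09, adjusted p = 0.0040). Its isoenzyme *PYC2* went the other way, with 4662, 4153 and 4730 in *dbp2Δ*, against 7294, 7639 and 15439 in wild-type (-1.16, adjusted p = 0.017). *MAE1*, the mitochondrial malic enzyme, had 2653, 2654 and 3342 in *dbp2Δ*, against 4534, 6823 and 12320 in wild-type (-1.45, adjusted p = 0.013). For *PYC2* and *MAE1* wild-type replicate 3 was the highest library, and without it the log2 fold changes were -0.73 (adjusted p = 0.0010) and -0.98 (adjusted p = 0.0031). *MPC3*, a subunit of the mitochondrial pyruvate carrier, had 800, 726 and 695 in *dbp2Δ*, against 203, 423 and 447 in wild-type (1.05, adjusted p = 0.019). *MPC3* and *LSC2* are neighbours whose ends face each other across 259 bp, and they moved in opposite directions. The calls of *PYC2* and *MPC3* were lost without any one of the *dbp2Δ* replicates (adjusted p = 0.057 to 0.070 for *PYC2* and 0.054 to 0.069 for *MPC3*), and that of *MAE1* without *dbp2Δ* replicate 1 or 2 (0.059 and 0.057).

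Of 6 carriers of cycle intermediates across the mitochondrial membrane, 2 fell, 2 rose and 2 did not pass the test. *SFC1*, which exchanges succinate for fumarate and is used for gluconeogenesis, had 68.1, 58.1 and 62.5 normalized counts in *dbp2Δ*, against 3.45, 3.43 and 10.1 in wild-type (3.42, SE 0.42, adjusted p = 0.0015). The log2 fold change of *SFC1* was 4.14 when wild-type replicate 3 was left out (adjusted p = 7.9e-05). *DIC1*, the dicarboxylate carrier (-0.78), and *ODC2*, an oxodicarboxylate carrier (-0.82), fell, and *CTP1*, the citrate carrier (0.57), rose; the call of *ODC2* held in 5 of the 11 alternatives and that of *CTP1* in 10. Of 6 genes that make or use 2-oxoglutarate and glutamate, 3 rose and the other 3 did not pass the test (median 0.77). *GDH1*, the NADP-dependent glutamate dehydrogenase that makes glutamate from 2-oxoglutarate, had 6539, 5434 and 6344 in *dbp2Δ*, against 2921, 3199 and 2677 in wild-type (1.06, adjusted p = 0.0018). *GDH2*, which degrades glutamate, had 3928, 3895 and 3489 in *dbp2Δ*, against 1396, 1389 and 1938 in wild-type (1.26, adjusted p = 0.0018). Both rose with no overlap, and both were called in all 11 alternatives. *GLN1*, glutamine synthetase, had 21131, 16849 and 17844 in *dbp2Δ*, against 5195, 10933 and 13083 in wild-type. It was also called (0.93), but at the threshold (adjusted p of 0.05 from edgeR after rounding), and its call held in 6 of the 11 alternatives.

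The genes of the regulators mostly did not pass the test: 1 of 9 fell, 1 rose and 7 did neither. *HAP2*, a DNA-binding subunit of the HAP complex, had 158, 194 and 167 normalized counts in *dbp2Δ*, against 285, 328 and 289 in wild-type (-0.80, SE 0.15, adjusted p = 0.0054). *HAP4*, its activating and regulated subunit, had 3024, 2809 and 2946 in *dbp2Δ*, against 489, 2350 and 1323 in wild-type. Its *dbp2Δ* libraries were all the higher, but the wild-type libraries were far apart and it did not pass the test (1.08, SE 0.47, adjusted p = 0.10). It was called without wild-type replicate 2 (1.69, adjusted p = 0.023) and by DESeq2 (1.08, adjusted p = 0.025), and was at 0.67 without wild-type replicate 1 (adjusted p = 0.057). *HAP3* (0.18, adjusted p = 0.39), *HAP5* (-0.21, adjusted p = 0.30) and the heme-responsive *HAP1* (-0.04, adjusted p = 0.81) did not pass the test. Of the retrograde genes, *RTG1* (0.22, adjusted p = 0.16), *RTG2* (-0.05, adjusted p = 0.69) and *RTG3* (-0.10, adjusted p = 0.57) did not pass the test either, while *MKS1*, a negative regulator of the pathway, rose (0.39, adjusted p = 0.019). The call of *MKS1* was lost without *dbp2Δ* replicate 1 or 3 (adjusted p = 0.078 and 0.076). Antisense transcripts are listed also for *PDX1*, *PYC2*, *SFC1*, *ODC2*, *GDH2*, *HAP1*, *HAP4*, *HAP5* and *MKS1*. These are levels of new RNA, and neither the location nor the activity of the factors was measured.

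**Figure D4:**
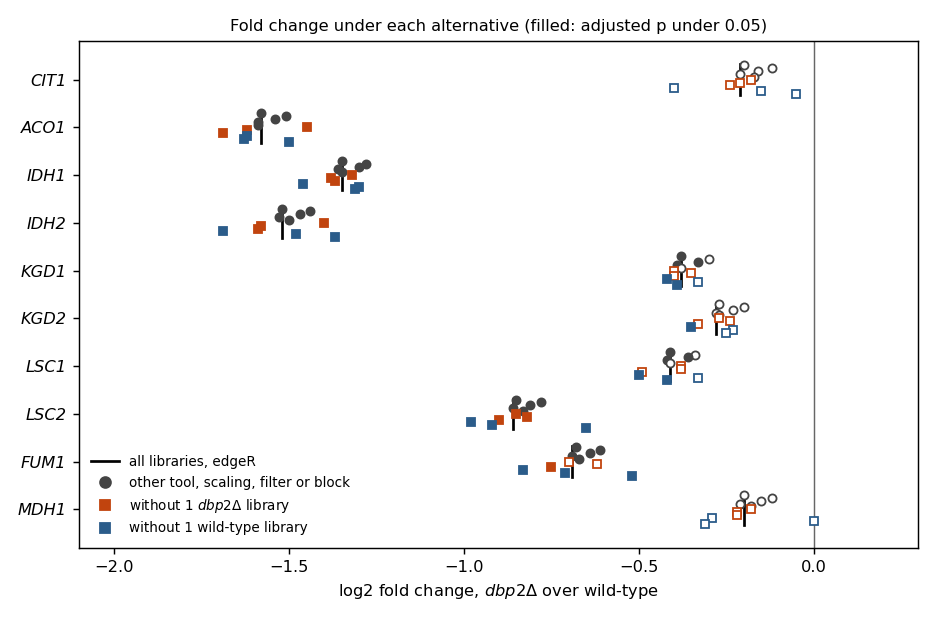
Log2 fold changes of *dbp2Δ* over wild-type (horizontal axis) of the 10 genes under each of 11 alternatives, as circles for another tool, scaling, filter or replicate block and squares for a library left out (orange *dbp2Δ*, blue wild-type), filled where the adjusted p was under 0.05, with a black bar for the value over all libraries. *ACO1*, *IDH1*, *IDH2* and *LSC2* are filled throughout, *CIT1* and *MDH1* nowhere.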

How the data were processed

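TT-seq libraries of 3 *dbp2Δ* and 3 wild-type cultures were compared. The authors deposited raw read counts per gene. The processing notes of the submitters list featureCounts, edgeR and the R64 build, with no versions. The aligner and the use of strand in counting were not given in the sources used here. The members and context lists were chosen with earlier results of these data known.

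Low-count genes were removed with filterByExpr, TMM factors (0.9346 to 1.042) were computed, and glmQLFit and glmQLFTest of edgeR 4.0.16 were run in R 4.3.3, with strain as the only factor and Benjamini-Hochberg adjustment over 5936 genes. Counts were normalized with the TMM factors to the mean effective library size. Named genes are the 10 members, every other subunit of the cycle's enzymes, every *HAP* and *RTG* gene, and called context genes with a log2 fold change of at least 1 in size. Other context genes, such as *CIT2* and *MKS1*, were named after their values were seen, and 1 gene of the isoenzyme list is not reported here by name. All 58 genes were matched by ID to RefSeq. Tables and figures were made with Python 3.11.15, numpy 2.4.6, pandas 2.3.3 and matplotlib 3.10.9.

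Alternatives were DESeq2 1.42.0, scaling by library size only or by the upper quartile, no filter, the replicate number as a block and each of the 6 libraries left out. The fit was tested on simulated data with 200 changed genes and the same spread in both strains. Of genes changed by 1 on the log2 scale, 88.9% were called, and 5.05% of the calls were unchanged genes. In the real data the strains differed in spread and many more genes were called, so these rates may not hold there. Intervals of fold changes cover the spread between these libraries. The listed non-coding transcripts were used only to see which genes have one, and their counts were not analysed here.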

Additional observations from a re-analysis of the deposited data

How the results depend on the processing

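*ACO1*, *IDH1*, *IDH2* and *LSC2* passed the threshold under each of the 11 alternatives, and no member was called as higher under any of them. With 1 library left out, 4 to 8 members were called as lower and 1427 to 3084 of all genes were called. Over all genes the counts were lowest without a *dbp2Δ* library (1427 to 1552), and the cause was not tested. With no TMM factor 5 members were lower, as *KGD1* and *LSC1* lost their calls, and over all genes 1073 were lower and 1305 higher, against 1301 and 1187. This scaling moved the median log2 fold change of all genes by 0.07 and upper quartile scaling by 0.05, and no member changed direction. The difference between the first part and the rest does not depend on the scaling and was -0.76 to -0.62 with 1 library left out. The replicate numbers did not pair the samples (correlations of same-numbered libraries of -0.0837, -0.123 and 0.00262). With the replicate number as a block, 5 members were lower (again without *KGD1* and *LSC1*, adjusted p = 0.11 and 0.062) and 2001 of all genes were called, 1043 of them lower. Among the other genes named in the report, the block lost the calls of *MKS1* (0.39, adjusted p = 0.053) and *GLN1* (1.02, adjusted p = 0.055) and added that of *HAP4* (1.33, adjusted p = 0.048). The wider promoter window gave CCAAT at 8 members in place of 5, and it takes in more bases. The lowest raw count of a member was 328 (*LSC2* in *dbp2Δ* replicate 1). *CIT1*, *MDH1* and *HAP4* had coefficients of variation of 3.51%, 2.89% and 3.73% in *dbp2Δ* and of 25.6%, 23.0% and 67.2% in wild-type.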
